A study of Mus musculus with 12 samples.

Results

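The genes described here are the glutathione transferases, glutathione peroxidases, peroxiredoxins and aldehyde dehydrogenases of mouse skin keratinocytes. A gene was taken when its symbol in the platform annotation was Gsta, Gstm, Gsto, Gstp, Gstt, Mgst, Gpx, Prdx or Aldh followed by a digit, and when a probe set was tied to it alone. This gave 52 of the 18193 genes measured: 21 glutathione transferases, 8 glutathione peroxidases, 3 peroxiredoxins and 20 aldehyde dehydrogenases. Where a gene had several such probe sets, the one with the highest mean of the 12 arrays stands for it.

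Expression was measured on Affymetrix mouse genome arrays in 2 fractions of skin keratinocytes from C57 DBA mice, separated on magnetic columns (MACS). The CD34+ fraction carries CD34, a cell surface protein known as a marker of the bulge of the hair follicle, and the CD34- fraction lacks it. The labels name no treatment and no transgene for either fraction. Cells were isolated 3 times, with at least 6 mice pooled each time, and 2 arrays were run from each RNA, so the 6 CD34+ and 6 CD34- arrays stand for 3 RNA samples per fraction. Arrays of the same RNA cannot be matched up from the labels. The p-values treat all arrays as separate samples, measure only the spread between arrays and can be too small. Cd34 itself averaged 10.15 ± 0.55 in CD34+ and 3.23 ± 0.30 in CD34- arrays (log2 values, SD over 6).

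These enzymes clear electrophiles, peroxides and aldehydes. Glutathione transferases join the thiol of glutathione to reactive compounds, glutathione peroxidases and peroxiredoxins reduce hydrogen peroxide and lipid peroxides, and aldehyde dehydrogenases oxidise aldehydes from lipids, amino acids, amines and retinal to acids. In skin they are known for the defence against oxidants and foreign chemicals, and many of them are targets of the transcription factor NRF2 or of the aryl hydrocarbon receptor.

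CD34+ arrays 1, 3 and 5 stood apart from the others. They had a spread over probe sets (SD) of 2.07, 1.92 and 2.02 log2 units, against 2.19 to 2.32 on the other 9 arrays, and averaged 6.08, 6.05 and 6.09 log2 units over the 52 genes, against 6.19 to 6.36 on CD34+ arrays 2, 4 and 6 and 6.23 to 6.41 on CD34- arrays. The 3' control probe set of Actb exceeded the 5' one, a measure of RNA integrity, by 3.95 to 5.65 on CD34+ and 1.82 to 3.24 on CD34- arrays, without overlap, and for Gapdh by 3.66 to 4.63 on CD34+ and 3.10 to 3.57 on CD34- arrays. For Actb it was 4.68, 4.13 and 3.98 on CD34+ arrays 1, 3 and 5, and 5.65, 3.95 and 4.87 on CD34+ arrays 2, 4 and 6. The highest Gapdh value was also on CD34+ array 2. Leaving out CD34+ arrays 1, 3 and 5 therefore does not leave out the arrays with the largest excess. The part of RNA integrity in the results below was not tested. The 3 Trpn control probe sets, which mark the low end of the scale, read 2.31 to 2.95.

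Keratinocyte markers were present in both fractions, with Krt5 at 12.17 ± 0.44 on CD34+ arrays and 13.20 ± 0.23 on CD34- arrays (log2 values, SD, n = 6 each, adjusted p = 0.00123). Dsp was at 12.83 ± 0.15 on CD34+ arrays and 12.81 ± 0.23 on CD34- arrays (SD, n = 6 each, adjusted p = 0.881). Of the 6 keratinocyte markers 5 were lower in CD34+ arrays, and their summed linear values were 15758 to 25305 on CD34+ and 25125 to 37246 on CD34- arrays. The 6 markers of differentiating epidermis, Krt10 (-0.16) and Sbsn (0.21) among them, had 0 calls. All 6 T cell markers were lower in CD34+ arrays, Ptprc at -2.80 and Thy1 at -1.90, and summed to 324 to 861 on CD34+ and 1609 to 3062 on CD34- arrays. Of 6 Langerhans and myeloid markers 5 were lower, with Epcam at -0.95 (-0.29, adjusted p = 0.241 with the mean of its probe sets) and H2-Aa at -0.58 (adjusted p = 0.0616), and they summed to 718 to 1378 on CD34+ and 1709 to 2437 on CD34- arrays. Of 6 dermal fibroblast markers 4 were higher in CD34+ arrays, Col1a2 at 3.15 and Dcn at 2.21, and the list summed to 360 to 1440 on CD34+ and 82.8 to 239 on CD34- arrays. Sebaceous gland markers had 2 lower of 7, with Scd1 at -0.74 (-0.40, adjusted p = 0.0842 without CD34+ arrays 1, 3 and 5) and Plin2 at -0.16 (adjusted p = 0.367), and summed to 1922 to 3344 on CD34+ and 2898 to 4082 on CD34- arrays. Melanocyte markers had 1 higher, Sox10 (0.49, and 0.28, adjusted p = 0.196 without CD34+ arrays 1, 3 and 5), and 1 lower of 6, with Dct at -0.36 (adjusted p = 0.237), and summed to 231 to 305 on CD34+ and 236 to 317 on CD34- arrays. Endothelial (6 markers, Eng 0.24, Kdr 0.11) and adipocyte markers (4 markers, Fabp4 0.18, Cidec 0.067) had 0 calls. They summed to 130 to 204 on CD34+ and 123 to 143 on CD34- arrays for endothelial and 30.1 to 43.8 on CD34+ and 29.3 to 34.3 on CD34- arrays for adipocyte markers, with 3 of the 4 adipocyte markers within the Trpn range in CD34- arrays and 1 in CD34+ arrays. In all results below, fewer cells of a type and less RNA per cell cannot be told apart, and the part of these other cells was not tested.

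Of the 52 genes 13 differed between the fractions (limma adjusted p under 0.05 over all 18193 genes), 4 higher and 9 lower in CD34+ cells. Over all genes the share called was 26.1%, with 7.99% higher and 18.1% lower. The 25.0% called here lies near that background. The median log2 fold change was -0.039 over the 52 genes and 0.040 over all genes. Arrays of the 2 fractions did not overlap for 6 of the 52, 1 higher and 5 lower, where the shares over all genes were 12.9%, 4.17% and 8.77%. Of the called genes 5 changed at least 2-fold, namely Aldh3a1, Aldh3b2, Aldh2, Gpx2 and Gstt1, against a background of 6.65%. A total of 51 of the 52 averaged above the highest Trpn reading in at least 1 fraction, Gsta3 being the exception. Over all genes 16549 of 18193 did. This line lies below the median of every array (4.19 to 4.43) and is no call of detection.

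**Figure D1:**
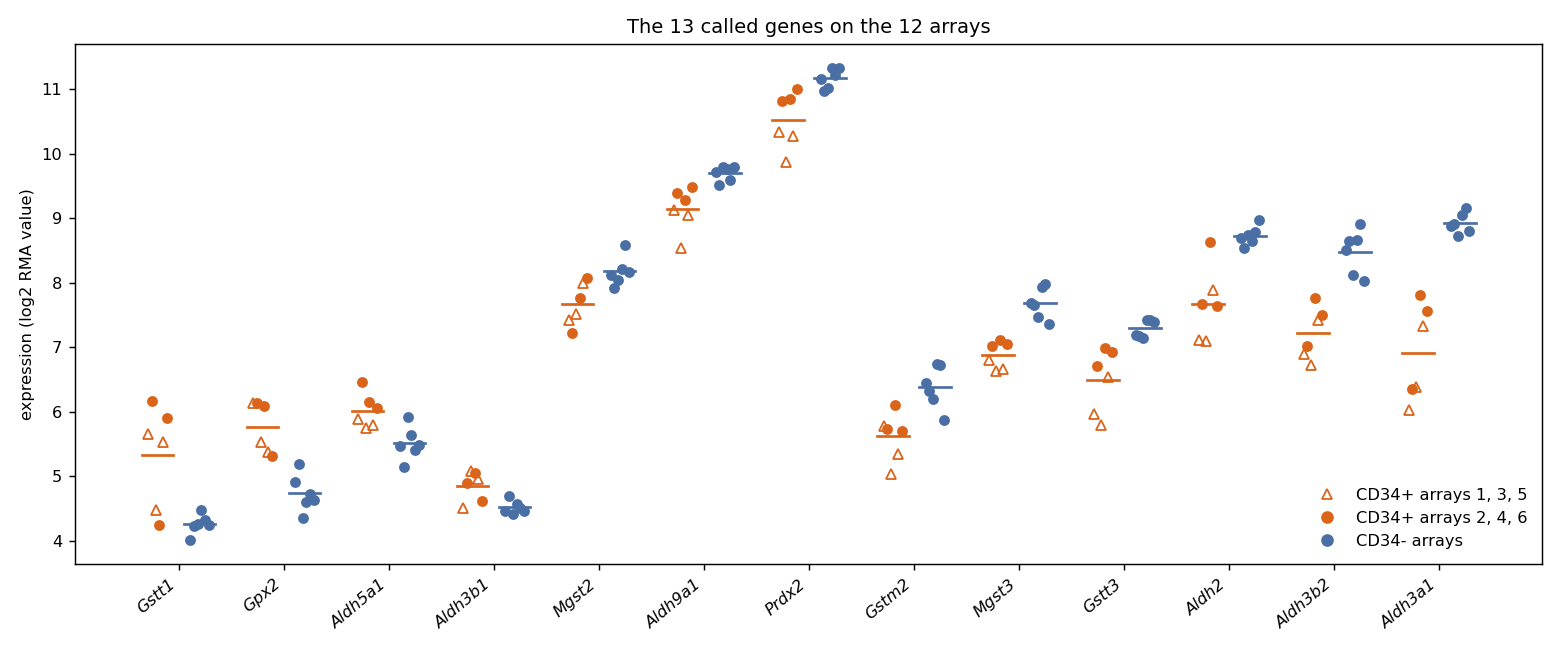
Log2 RMA values (vertical axis) of the 13 called genes on each array, CD34+ left and CD34- right within a gene, with group means as bars and CD34+ arrays 1, 3 and 5 as open triangles. Gpx2 and the 5 genes Aldh3a1, Aldh3b2, Gstt3, Mgst3 and Aldh9a1 show no overlap between the fractions, and for Gstt1 CD34+ arrays 3 and 4 lie at the CD34- level.

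Among the glutathione transferases, 1 of 21 rose and 4 fell in CD34+ cells. Gstt1, a theta-class transferase that acts on small halogenated compounds, read 5.66, 6.16, 4.48, 4.24, 5.54 and 5.91 on CD34+ arrays 1 to 6, and 4.01, 4.23, 4.26, 4.47, 4.33 and 4.24 on CD34- arrays 1 to 6. CD34+ arrays 1, 2, 5 and 6 lay well above every CD34- array, while array 3 was level with the highest CD34- array and array 4 lay among the CD34- values. The gene was 2.11-fold higher in CD34+ cells (log2 fold change 1.08, SE 0.29, limma adjusted p = 0.0138), and with means of arrays 1-2, 3-4 and 5-6 it did not pass (adjusted p = 0.0641). Gstt3, another theta-class enzyme and its direct neighbour in the RefSeq gene list, moved the other way. It ranged from 5.80 to 6.99 in CD34+ arrays with a median of 6.63, and from 7.15 to 7.43 in CD34- arrays with a median of 7.29, with every CD34+ array below every CD34- array. The fall was 1.74-fold (log2 fold change -0.80, SE 0.19, limma adjusted p = 0.00734) and was smaller without CD34+ arrays 1, 3 and 5, at -0.42 (adjusted p = 0.0190). The other 2 theta-class genes, Gstt2 (-0.21, adjusted p = 0.305) and Gstt4 (0.13, adjusted p = 0.340), did not pass.

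Of the 3 microsomal transferases, Mgst2 and Mgst3 fell. Mgst3, a membrane enzyme with transferase and peroxidase activity, ranged from 6.64 to 7.12 in CD34+ arrays with a median of 6.92, and from 7.37 to 7.98 in CD34- arrays with a median of 7.67, and the fractions did not overlap. Its fall was 1.74-fold (log2 fold change -0.80, SE 0.13, limma adjusted p = 0.000671), with smaller differences after a further quantile normalization, at -0.52 (adjusted p = 0.00253), and with the mean of its 2 probe sets, at -0.31 (adjusted p = 0.0108). Mgst2, which also conjugates leukotriene A4, ranged from 7.21 to 8.07 in CD34+ arrays with a median of 7.64, and from 7.92 to 8.58 in CD34- arrays with a median of 8.14, and the fractions overlapped. It fell by 0.51 on the log2 scale (SE 0.16, limma adjusted p = 0.0291). The call was lost after a further quantile normalization, at -0.19 (adjusted p = 0.460), with means of array pairs (adjusted p = 0.0786), and without CD34+ arrays 1, 3 and 5, at -0.49 (adjusted p = 0.0923). It was also lost on leaving out CD34+ array 1 or 3 or CD34- array 4, 5 or 6 alone (adjusted p 0.0508 to 0.0702). Mgst1, the third microsomal member, did not pass (0.43, adjusted p = 0.104, 95% confidence interval 0.029 to 0.83). Named after its values were seen, it was higher without CD34+ arrays 1, 3 and 5, at 0.76 (adjusted p = 0.00428), and after a further quantile normalization, at 0.70 (adjusted p = 0.00147). It also passed without CD34+ array 3 alone, at 0.54 (adjusted p = 0.0341), and with the mean of its probe sets, at 0.34 (adjusted p = 0.0213).

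The mu class forms a cluster of neighbouring genes with closely related sequences, and 1 of its 7 members fell. Gstm2 ranged from 5.03 to 6.11 in CD34+ arrays with a median of 5.72, and from 5.87 to 6.74 in CD34- arrays with a median of 6.39, with overlap (log2 fold change -0.77, SE 0.19, limma adjusted p = 0.00845). It did not pass without CD34+ arrays 1, 3 and 5, at -0.54 (adjusted p = 0.0709). The other 6 ran from -0.24 for Gstm4 to 0.50 for Gstm3, and none passed, with the probe sets of Gstm1 and Gstm3 of a kind that can read related transcripts (name ending in x_at or s_at). Gstm3 was higher without CD34+ array 2, at 0.62 (adjusted p = 0.0404), and without CD34+ array 4 (adjusted p = 0.0400), but was at 0.11 (adjusted p = 0.746) without CD34+ arrays 1, 3 and 5. Of the alpha class, Gsta2 (-0.60, adjusted p = 0.0661) and Gsta4 (-0.37, adjusted p = 0.217) did not pass, and the group means of Gsta3, 2.72 on CD34+ and 2.86 on CD34- arrays, lay within the Trpn range. After median centring Gsta2 was lower, at -0.70 (adjusted p = 0.0469), and it also passed on leaving out CD34+ array 4 or 6 alone (adjusted p = 0.0237 and 0.0272), while it was at -0.35 (adjusted p = 0.398) without CD34+ arrays 1, 3 and 5.

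The transferases with the highest mean values that were not called are Gstp1 and Gsto1. Gstp1, the pi-class enzyme that dominates in many epithelia, averaged 10.00 ± 0.30 on CD34+ arrays and 10.01 ± 0.18 on CD34- arrays (SD, n = 6 each), a difference of -0.0085 (95% confidence interval -0.31 to 0.29, adjusted p = 0.966). Gsto1, an omega-class enzyme that reduces dehydroascorbate, averaged 10.13 ± 0.34 on CD34+ arrays and 10.16 ± 0.29 on CD34- arrays (SD, n = 6 each), a difference of -0.025 (95% confidence interval -0.39 to 0.34, adjusted p = 0.920). Both intervals, which treat all arrays as separate samples, leave out a 2-fold change in either direction. The probe set that stands for Gsto1 is of the x_at kind, which can read related transcripts. A second probe set of Gsto1, not of that kind, was lower, at -0.45 (adjusted p = 0.0443). The small differences of Gstp1 and Gsto1 turned sign without CD34+ arrays 1, 3 and 5. Gsto2 (0.064) and Gstp3 (0.018) did not pass either.

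Of the 8 glutathione peroxidases 1 rose and 0 fell. Gpx2, a selenoprotein known from the gut and other epithelia and a known NRF2 target, read 6.14, 6.14, 5.54, 6.10, 5.37 and 5.32 on CD34+ arrays 1 to 6, and 4.92, 5.19, 4.35, 4.60, 4.72 and 4.64 on CD34- arrays 1 to 6. Every CD34+ array lay above every CD34- array, with the lowest CD34+ value at 5.32 and the highest CD34- value at 5.19. The rise was 2.04-fold (log2 fold change 1.03, SE 0.19, limma adjusted p = 0.00116), and it was 1.11 without CD34+ arrays 1, 3 and 5. Gpx1, the cytosolic selenoprotein that reduces hydrogen peroxide, ranged from 9.94 to 11.42 in CD34+ arrays with a median of 10.43, and from 10.92 to 11.49 in CD34- arrays with a median of 10.97. It did not pass with 12 arrays (-0.60, adjusted p = 0.0708, 95% confidence interval -1.10 to -0.10). It passed without CD34+ array 4, at -0.78 (adjusted p = 0.00657), and with means of array pairs (adjusted p = 0.0142), while it was -0.12 without CD34+ arrays 1, 3 and 5. Gpx4, which reduces lipid hydroperoxides in membranes and protects from ferroptosis, averaged 10.51 ± 0.26 on CD34+ arrays and 10.46 ± 0.23 on CD34- arrays (SD, n = 6 each), a difference of 0.050 (95% confidence interval -0.25 to 0.35, adjusted p = 0.804). A second probe set of Gpx4 was lower in CD34+ arrays, at -0.80 (adjusted p = 0.0168), so the 2 probe sets disagree. The probe set that stands for Gpx4 is of the x_at kind, which can read related transcripts, and the second is not. The secreted Gpx3 (0.38, adjusted p = 0.0731), Gpx5 (0.31, adjusted p = 0.107), Gpx6 (0.093) and the enzymes of the endoplasmic reticulum Gpx7 (-0.053) and Gpx8 (-0.072) did not pass. Gpx3 passed without CD34+ array 4, at 0.45 (adjusted p = 0.0322), and was at 0.29 (adjusted p = 0.314) without CD34+ arrays 1, 3 and 5.

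The 3 peroxiredoxins sit in different compartments of the cell. Prdx2, a cytosolic enzyme that takes its electrons from thioredoxin, ranged from 9.88 to 11.00 in CD34+ arrays with a median of 10.58, and from 10.97 to 11.33 in CD34- arrays with a median of 11.20. The fractions overlapped by CD34+ array 6 alone, which lay above the lowest CD34- array. It was 1.57-fold lower (log2 fold change -0.65, SE 0.18, limma adjusted p = 0.0149). Its second probe set was lower as well at -0.98 (adjusted p = 0.000301), and the call was lost without CD34+ arrays 1, 3 and 5, at -0.28 (adjusted p = 0.102). After a further quantile normalization it was lower by a smaller amount, at -0.40 (adjusted p = 0.00859). Prdx3, of mitochondria, did not pass (-0.41, adjusted p = 0.0999, 95% confidence interval -0.79 to -0.032) and passed without CD34+ array 2 (adjusted p = 0.0229), while it was at -0.21 (adjusted p = 0.513) without CD34+ arrays 1, 3 and 5. Prdx4, of the endoplasmic reticulum, had the opposite sign (0.56, adjusted p = 0.0919, 95% confidence interval 0.058 to 1.05). It passed without CD34+ array 6 (adjusted p = 0.0415) and with the mean of its probe sets, at 0.39 (adjusted p = 0.00858). Of its 3 other probe sets 1 was higher over all probe sets, at 0.63 (adjusted p = 0.00201). Without CD34+ arrays 1, 3 and 5 Prdx4 was at 0.19 (adjusted p = 0.497).

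Aldehyde dehydrogenases held the largest change among the 52 genes. Of the 20, 4 were lower and 2 higher, where the shares over all genes were 18.1% and 7.99%. Aldh3a1, which oxidises aromatic aldehydes and aldehydes from lipid peroxidation and is a known target of the aryl hydrocarbon receptor, read 6.03, 6.35, 6.38, 7.81, 7.33 and 7.56 on CD34+ arrays 1 to 6, and 8.88, 8.91, 8.72, 9.05, 9.15 and 8.80 on CD34- arrays 1 to 6. No CD34+ array reached a CD34- array, and the CD34+ arrays were more spread out (SD 0.75 against 0.16, n = 6 each). The gene was 4.03-fold lower in CD34+ cells (log2 fold change -2.01, SE 0.27, limma adjusted p = 0.000167), and the difference was -1.68 (adjusted p = 0.00127) without CD34+ arrays 1, 3 and 5. Its neighbour Aldh3a2, the fatty aldehyde dehydrogenase of the endoplasmic reticulum, did not pass (-0.083, adjusted p = 0.776) and, without the 3 arrays, was higher at 0.36 (adjusted p = 0.0369).

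Aldh3b2 and Aldh3b1, of the same subfamily, moved in opposite directions. Aldh3b2, in the mouse a lipid droplet enzyme for long-chain aldehydes, ranged from 6.73 to 7.76 in CD34+ arrays with a median of 7.23, and from 8.03 to 8.91 in CD34- arrays with a median of 8.58, with no overlap. It was 2.39-fold lower (log2 fold change -1.25, SE 0.19, limma adjusted p = 0.000420). Aldh3b1, an aldehyde dehydrogenase of cell membranes, ranged from 4.50 to 5.08 in CD34+ arrays with a median of 4.92, and from 4.41 to 4.69 in CD34- arrays with a median of 4.49, with overlap. It was 1.26-fold higher (log2 fold change 0.33, SE 0.11, limma adjusted p = 0.0452). This call, close to the threshold, was lost after median centring, at 0.23 (adjusted p = 0.152), after a further quantile normalization (adjusted p = 0.0906), with means of array pairs (adjusted p = 0.0710), without CD34+ arrays 1, 3 and 5, at 0.34 (adjusted p = 0.0554), and, narrowly, over genes above the highest Trpn value only. It was also lost on leaving out CD34+ array 2, 3, 4 or 5 or CD34- array 1, 3, 4, 5 or 6 alone (adjusted p 0.0617 to 0.0900).

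Of the mitochondrial enzymes, Aldh2 fell and Aldh5a1 rose. Aldh2, the main acetaldehyde dehydrogenase, ranged from 7.10 to 8.64 in CD34+ arrays with a median of 7.65, and from 8.53 to 8.98 in CD34- arrays with a median of 8.72. CD34+ array 4 lay among the CD34- arrays and the other 5 below them, for a fall of 2.08-fold (log2 fold change -1.06, SE 0.22, limma adjusted p = 0.00282). The 4 other probe sets of Aldh2 did not pass, 2 of them with positive differences of 0.74 (adjusted p = 0.142) and 0.48 (adjusted p = 0.217), and all its probe sets averaged gave -0.032 (adjusted p = 0.836), so the fall rests on 1 probe set. Aldh5a1, which clears succinic semialdehyde from the breakdown of GABA, ranged from 5.74 to 6.46 in CD34+ arrays with a median of 5.97, and from 5.14 to 5.92 in CD34- arrays with a median of 5.47, with overlap. It was 1.42-fold higher (log2 fold change 0.51, SE 0.15, limma adjusted p = 0.0218), at 0.71 (adjusted p = 0.00951) without the 3 arrays, and did not pass after median centring, at 0.41 (adjusted p = 0.0874).

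Aldh9a1, which oxidises aminoaldehydes on the way to carnitine and GABA, ranged from 8.54 to 9.48 in CD34+ arrays with a median of 9.21, and from 9.52 to 9.80 in CD34- arrays with a median of 9.74, with no overlap. It fell 1.46-fold (log2 fold change -0.55, SE 0.14, limma adjusted p = 0.0118). Its second probe set was lower too, at -1.36 (adjusted p = 5.41e-05), and without CD34+ arrays 1, 3 and 5 the difference was -0.31 (adjusted p = 0.0464). After a further quantile normalization it was -0.27 (adjusted p = 0.0297), and with the mean of its 2 probe sets -0.96 (adjusted p = 3.42e-05). In the RefSeq gene list Aldh9a1 lies next to Mgst3, which fell as well.

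The retinaldehyde dehydrogenases, which make retinoic acid, did not pass. Aldh1a1 was at -0.66, adjusted p = 0.140 (95% confidence interval -1.34 to 0.029) and its close relative Aldh1a7 at -1.07, adjusted p = 0.204 (95% confidence interval -2.39 to 0.25). Aldh1a2 was at 0.34 (adjusted p = 0.326) and Aldh1a3 at 0.17 (adjusted p = 0.316). Both lay close to the Trpn range, with means of 3.50 and 3.58 on CD34+ arrays and 3.16 and 3.41 on CD34- arrays. The highest Aldh1a2 value was on CD34+ array 3, at 4.65. Aldh1a7 had the largest SD of the 52 genes among CD34+ arrays, with values from 3.68 to 7.85 on CD34+ and from 5.93 to 7.61 on CD34- arrays. Its lowest values in both fractions were on arrays 1 and 2, at 3.68 and 4.22 on CD34+ and 5.95 and 5.93 on CD34- arrays. Aldh1a1 was likewise lowest on arrays 1 and 2 of both fractions, and the cause was not tested. Aldh6a1, an enzyme of valine breakdown, averaged 9.11 ± 0.38 on CD34+ arrays and 9.09 ± 0.29 on CD34- arrays (SD, n = 6 each, 0.012, 95% confidence interval -0.37 to 0.40). Aldh16a1 averaged 6.84 ± 0.20 on CD34+ arrays and 6.97 ± 0.17 on CD34- arrays (SD, n = 6 each, -0.13, 95% confidence interval -0.38 to 0.11). The other 8 that did not pass, Aldh18a1, Aldh4a1, Aldh7a1, Aldh1b1, Aldh1l1, Aldh1l2, Aldh8a1 and Aldh3a2, ran from -0.28 to 0.22.

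**Figure D2:**
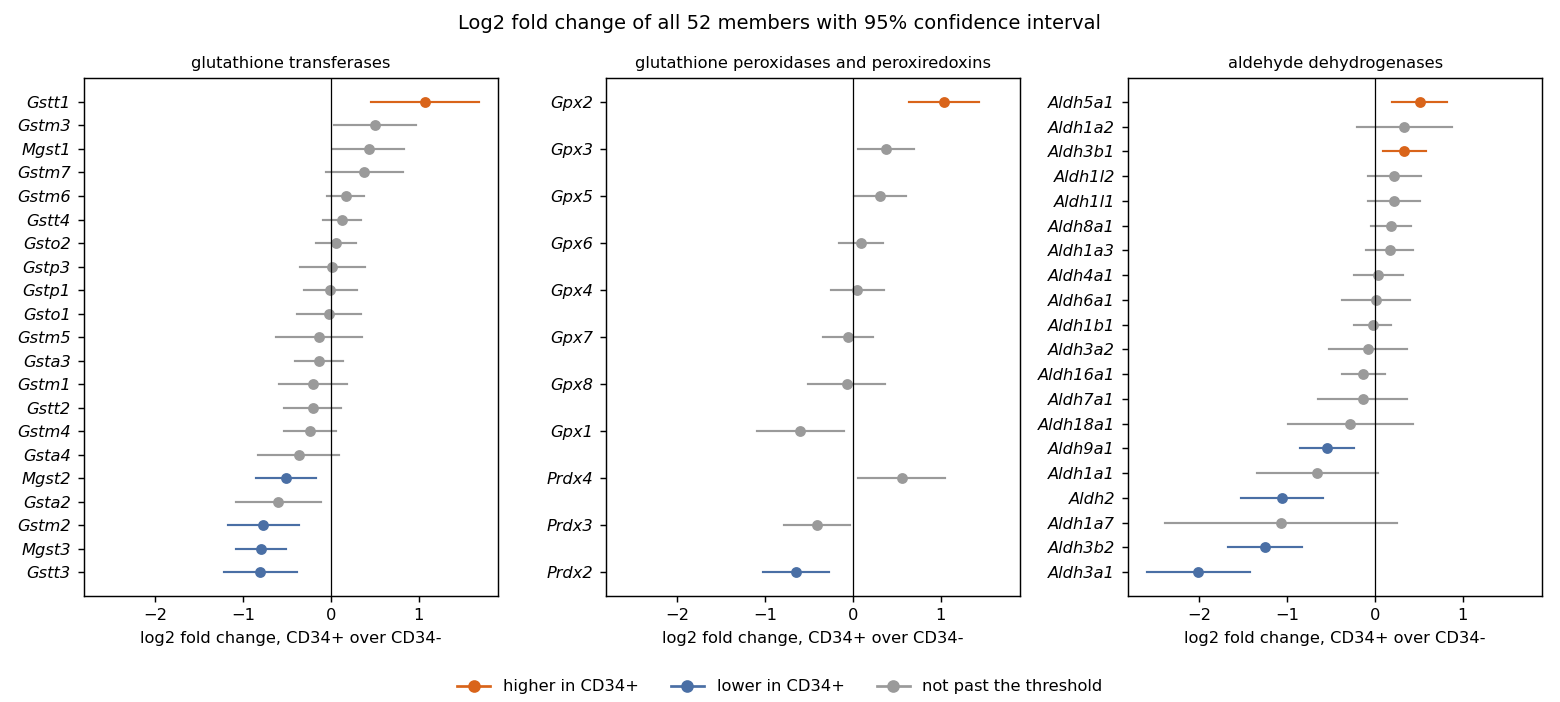
Log2 fold change, CD34+ over CD34- (horizontal axis), of all 52 genes by family, with 95% confidence intervals from the limma fit over 12 arrays per gene. Gstt1 and Gpx2 lie above 1, Aldh3a1, Aldh3b2 and Aldh2 below -1, and 39 genes did not pass the threshold.

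Without CD34+ arrays 1, 3 and 5, an exclusion known from earlier results of these data, 5 of the 52 rose and 6 fell, while 9 of the 13 calls remained in the same direction. Over all genes this setting called 1602 higher and 1900 lower, against 1454 and 3296 with 12 arrays. The 4 calls lost were those of Gstm2, Prdx2, Mgst2 and Aldh3b1. Of these, Mgst2 and Aldh3b1 kept nearly the same fold change and Prdx2 did not. The 2 added were Mgst1 and Aldh3a2, both higher. The 4 falls that kept their call besides Aldh3a1 and Aldh3b2 were those of Aldh2 (-0.75, adjusted p = 0.0235), Mgst3 (-0.62, adjusted p = 0.0103), Gstt3 and Aldh9a1. Of the rises, Gstt1 (1.18, adjusted p = 0.0293), Gpx2 and Aldh5a1 kept theirs. With even-numbered arrays, 3 against 3, the calls of Aldh3a1, Aldh3b2 and Aldh5a1 remained and 10 were lost.

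**Figure D3:**
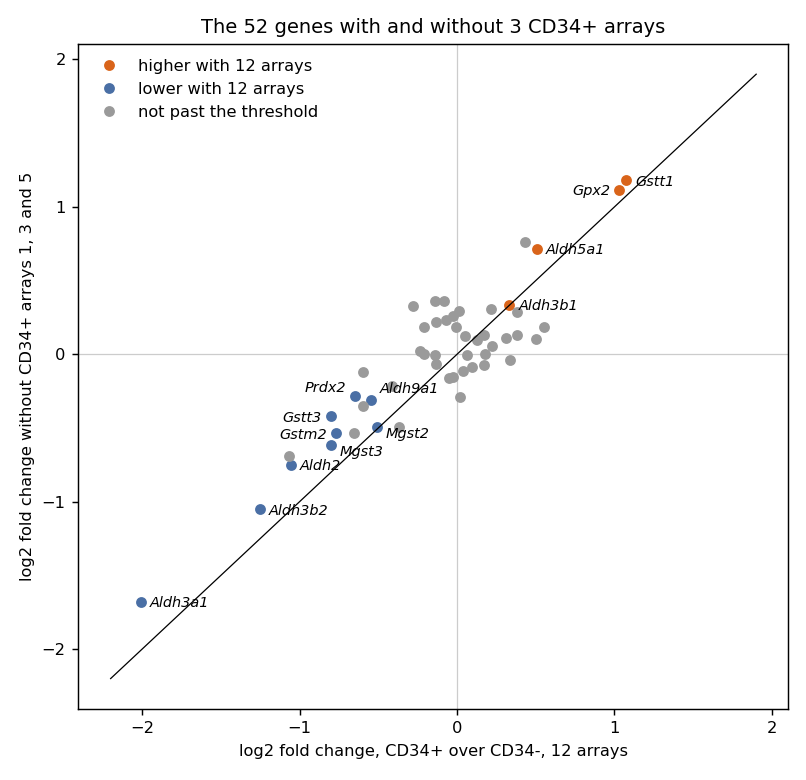
Log2 fold change of each of the 52 genes with 12 arrays (horizontal axis) and without CD34+ arrays 1, 3 and 5 (vertical axis), with the line of equal values and names at the 13 called genes. The 9 called falls lie above the line and are smaller without the 3 arrays, while Gstt1, Gpx2 and Aldh5a1 lie above it and are larger.

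Probe sets of one gene did not always move together. Of the 13 called genes 4 had further probe sets, 7 in all. Of these, 2 were called in the same direction over all probe sets (Aldh9a1 and Prdx2) and 0 were called in the opposite direction. The other 5 did not pass (4 of Aldh2 and 1 of Mgst3). Among them, those of Aldh2 at 0.74 and 0.48 and that of Mgst3 at 0.19 (adjusted p = 0.291) had the opposite sign. Those of Aldh2 at -0.14 and -0.19 had the same sign. The share called over all probe sets was 21.5%. Among the 23 further probe sets of genes not called, 4 passed, those of Gpx4 and Gsto1 lower and those of Prdx4 and Aldh7a1 higher. The Aldh7a1 probe set was at 0.39 (adjusted p = 0.0346), with means of 3.51 in CD34+ and 3.13 in CD34- arrays, close to the Trpn range.

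**Figure D4:**
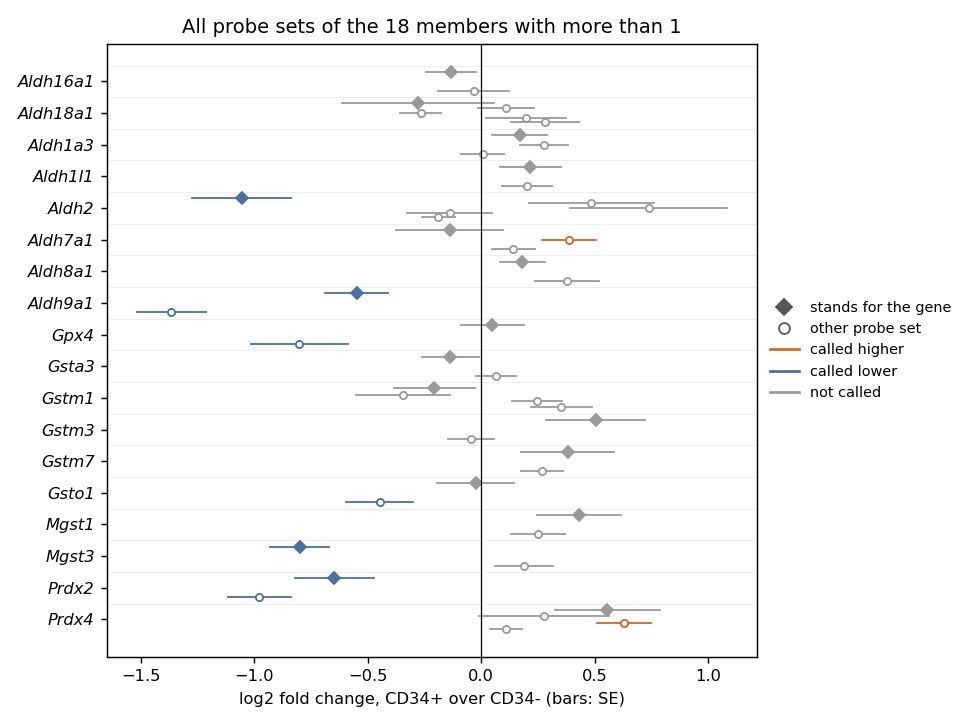
Log2 fold change, CD34+ over CD34- (horizontal axis, bars are the SE of the limma fit), of every probe set of the 18 genes with more than 1, filled diamonds for the probe set that stands for the gene and open circles for the others. Aldh9a1 and Prdx2 have both probe sets lower, while those of Aldh2, Mgst3, Gpx4 and Gsto1 differ.

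Promoter sequence was read for 44 of the 52 genes from RefSeq (GRCm38.p6), 250 bases before to 50 after the start. The core of the antioxidant response element bound by NRF2, TGACNNNGC, and the core of the xenobiotic response element bound by the aryl hydrocarbon receptor, GCGTG, were searched on both strands. The first stood in 6 of the 44 (13.6%), against 14.0% of all 27025 genes with such a window and 16.2% of the 14452 of them on the array. The second stood in 17 of the 44 (38.6%), against 35.2% and 47.8%. Neither was found in the windows of the 4 genes that rose, and of the 6 falling genes with a window 1 held the first and 3 the second. Aldh3a1, Aldh3b2 and Aldh2, the 3 largest falls, were not among the windows read. Gstt3, Gstm2 and Mgst2, which also fell, have windows that held neither motif and are not shown. The promoters of Aldh9a1, Mgst3 and Prdx2, the 3 falling genes that held the second motif, and of Gpx2, the rise without overlap, are shown. This display therefore does not stand for all falling genes. The windows are chr1:167349741-167350040 on the plus strand for Aldh9a1, chr1:167393792-167394091 on the minus strand for Mgst3, chr8:84969372-84969671 on the plus strand for Prdx2 and chr12:76795505-76795804 on the minus strand for Gpx2. They are written 5' to 3' along the gene and carry the motifs in capitals.
Aldh9a1: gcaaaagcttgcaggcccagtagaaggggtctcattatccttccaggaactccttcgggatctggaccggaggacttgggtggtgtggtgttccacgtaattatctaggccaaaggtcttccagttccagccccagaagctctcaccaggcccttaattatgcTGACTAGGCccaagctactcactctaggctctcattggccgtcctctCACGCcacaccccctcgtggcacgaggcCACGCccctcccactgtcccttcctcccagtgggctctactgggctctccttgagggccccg
Mgst3: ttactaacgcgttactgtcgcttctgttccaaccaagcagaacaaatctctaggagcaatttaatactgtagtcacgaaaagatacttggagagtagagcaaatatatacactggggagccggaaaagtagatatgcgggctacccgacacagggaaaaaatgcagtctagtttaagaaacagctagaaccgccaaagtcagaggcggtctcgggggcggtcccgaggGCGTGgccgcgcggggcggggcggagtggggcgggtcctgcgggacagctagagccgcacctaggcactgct
Prdx2: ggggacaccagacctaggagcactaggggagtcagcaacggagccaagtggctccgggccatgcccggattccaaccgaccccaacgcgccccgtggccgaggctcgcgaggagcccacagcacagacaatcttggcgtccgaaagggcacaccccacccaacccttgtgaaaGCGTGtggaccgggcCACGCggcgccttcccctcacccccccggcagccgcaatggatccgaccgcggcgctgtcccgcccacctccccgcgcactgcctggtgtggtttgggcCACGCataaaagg
Gpx2: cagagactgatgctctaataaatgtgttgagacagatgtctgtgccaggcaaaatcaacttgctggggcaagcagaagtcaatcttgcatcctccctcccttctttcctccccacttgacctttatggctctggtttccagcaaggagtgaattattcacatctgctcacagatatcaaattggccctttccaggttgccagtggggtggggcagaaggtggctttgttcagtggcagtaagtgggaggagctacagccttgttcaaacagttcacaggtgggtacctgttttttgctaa
Aldh9a1 holds 1 antioxidant core and 2 xenobiotic cores, Mgst3 1 xenobiotic core and Prdx2 3, with no overlap between the 2 motifs. In Gpx2 these letters are not in this window.

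The enzymes above depend on other genes that make and recycle glutathione, supply thioredoxin and answer to NRF2 and the aryl hydrocarbon receptor. The lists of such genes were chosen with earlier results of these data known, which limits what their share called can show. Of the 71 measured, 7 rose and 21 fell in CD34+ cells, a share called of 39.4% against 26.1% over all genes. Their median log2 fold change was -0.23. In the 4 lists, in the order given below, the share called was 47.1%, 33.3%, 36.4% and 42.9%. The split of the 71 depended on the scaling and the 3 arrays. It was 14 higher and 15 lower after a further quantile normalization, 6 and 26 after median centring, and 11 and 8 without CD34+ arrays 1, 3 and 5. The calls over all genes moved the same way, to 2099 higher and 2499 lower, 901 and 3801, and 1602 and 1900 under these settings, against 1454 and 3296.

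Of 17 genes of glutathione synthesis and turnover 2 rose and 6 fell, with a median of -0.36. The counts were 1 higher and 2 lower (median -0.055) without CD34+ arrays 1, 3 and 5, and 4 higher and 4 lower (median -0.12) after a further quantile normalization. Gsr, the reductase that regenerates glutathione, ranged from 4.93 to 5.70 in CD34+ arrays with a median of 5.42, and from 6.81 to 7.29 in CD34- arrays with a median of 7.23. Its arrays lay far apart between the fractions, and it was 3.44-fold lower (log2 fold change -1.78, SE 0.14, limma adjusted p = 1.34e-06), at -1.73 (adjusted p = 1.42e-05) without the 3 arrays and -1.10 (adjusted p = 1.67e-06) with the mean of its probe sets. The exporter of glutathione conjugates Abcc1 (-0.76, adjusted p = 0.0324), the 5-oxoprolinase Oplah (-0.75, adjusted p = 0.0435) and glutaredoxin, Glrx (-0.73, adjusted p = 0.00500), fell too. Without CD34+ arrays 1, 3 and 5 none of the 3 passed, with Abcc1 at -0.25 (adjusted p = 0.385), Oplah at -0.25 (adjusted p = 0.444) and Glrx at -0.51 (adjusted p = 0.0741). After a further quantile normalization Abcc1 (-0.47, adjusted p = 0.0666) and Oplah (-0.46, adjusted p = 0.0834) did not pass either. Oplah was at the edge when adjusted over all probe sets (adjusted p = 0.0515), and Glrx was at -0.35 (adjusted p = 0.0272) with the mean of its probe sets. Abcc1 also lost its call on leaving out CD34+ array 1, 3 or 5 or CD34- array 4, 5 or 6, and Oplah on leaving out these or CD34- array 2 (adjusted p 0.0621 to 0.100). The 2 rises were those of the glutathione synthetase Gss (0.70, limma adjusted p = 0.0115), read by an x_at probe set, and Chac1 (0.54, limma adjusted p = 0.0230). Gclc (-0.24, limma adjusted p = 0.263) and Gclm (0.46, limma adjusted p = 0.130), also of glutathione synthesis, did not pass. These 4 genes are named after their values were seen.

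Of 18 genes of the thioredoxin system, superoxide dismutases, catalase and methionine sulfoxide reductases 2 rose and 4 fell, with a median of 0.059. The split turned to 6 higher and 3 lower (median 0.15) without CD34+ arrays 1, 3 and 5, and to 6 higher and 4 lower (median 0.34) after a further quantile normalization. Txn1, the cytosolic thioredoxin, ranged from 11.41 to 12.49 in CD34+ arrays with a median of 12.04, and from 10.62 to 11.38 in CD34- arrays with a median of 11.27, without overlap, and rose (log2 fold change 0.84, SE 0.19, limma adjusted p = 0.00551). Txnrd1, the reductase that recycles it, ranged from 5.08 to 6.01 in CD34+ arrays with a median of 5.48, and from 6.39 to 6.83 in CD34- arrays with a median of 6.59 and fell (log2 fold change -1.07, SE 0.15, limma adjusted p = 0.000165), although all its probe sets averaged gave -0.16 (adjusted p = 0.262). The mitochondrial superoxide dismutase Sod2 (-0.76, adjusted p = 0.00221) and the methionine sulfoxide reductase Msrb1 (-0.73, adjusted p = 0.00480) fell, and without the 3 arrays they were at -0.50 (adjusted p = 0.0113) and -0.42 (adjusted p = 0.0360).

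Of 22 regulators and other targets of NRF2 1 rose and 7 fell, with a median of -0.25, and without CD34+ arrays 1, 3 and 5 these counts were 1 and 1 (median -0.13). After a further quantile normalization they were 1 and 5 (median -0.039), and after median centring 0 and 10 (median -0.35). Nfe2l2, which encodes NRF2, averaged 8.16 ± 0.55 on CD34+ arrays and 8.95 ± 0.23 on CD34- arrays (SD, n = 6 each). It fell (log2 fold change -0.80, SE 0.22, limma adjusted p = 0.0157) with 12 arrays and did not pass without the 3, at -0.35 (adjusted p = 0.166). Keap1, its inhibitor, did not pass (-0.27, adjusted p = 0.216), although the mean of its probe sets did (-0.45, adjusted p = 0.00535). The 1 rise was that of Hmox1 (0.42, limma adjusted p = 0.0374), and Nqo1 did not pass (0.17, limma adjusted p = 0.370). Both are named after their values were seen. The autophagy adaptor Sqstm1 (-1.25, adjusted p = 0.000334), ferritin heavy chain, Fth1 (-1.05, adjusted p = 0.00494), and malic enzyme, Me1 (-0.83, adjusted p = 0.0193), fell with 12 arrays. Without the 3 arrays Sqstm1 kept its call (-1.04, adjusted p = 0.00320; -0.55, adjusted p = 0.00234 with the mean of its probe sets), while Fth1 (-0.57, adjusted p = 0.0546) and Me1 (-0.46, adjusted p = 0.187) did not, and Me1 also lost it after a further quantile normalization (-0.53, adjusted p = 0.0848).

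Of 14 genes of alcohol and retinal handling and of the aryl hydrocarbon receptor 2 rose and 4 fell, with a median of -0.070. The split turned to 3 higher and 2 lower both without CD34+ arrays 1, 3 and 5 (median 0.11) and after a further quantile normalization (median 0.078). The receptor itself, Ahr, ranged from 9.51 to 10.74 in CD34+ arrays with a median of 10.10, and from 10.97 to 11.50 in CD34- arrays with a median of 11.23, without overlap. It was 2.06-fold lower (log2 fold change -1.05, SE 0.19, limma adjusted p = 0.00106), at -0.73 (adjusted p = 0.00765) without the 3 arrays and -0.42 (adjusted p = 0.00731) with the mean of its probe sets. Of 4 known targets in the list, Cyp1b1 was 2.17-fold higher (log2 fold change 1.12, SE 0.17, limma adjusted p = 0.000346), at 0.50 (adjusted p = 0.0102) with the mean of its probe sets. The other 3, named after their values were seen, were Ahrr, which fell (-0.48, adjusted p = 0.0115), and Tiparp (-0.30, adjusted p = 0.369) and Cyp1a1 (-0.034, adjusted p = 0.857), which did not pass. Cyp26b1, which degrades retinoic acid, rose (log2 fold change 1.44, SE 0.26, limma adjusted p = 0.00109). Crabp2, which carries retinoic acid to the nucleus, fell (log2 fold change -0.93, SE 0.25, limma adjusted p = 0.0154) with 12 arrays and did not pass without the 3, at -0.81 (adjusted p = 0.0925), or after a further quantile normalization, at -0.66 (adjusted p = 0.0799).

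**Figure D5:**
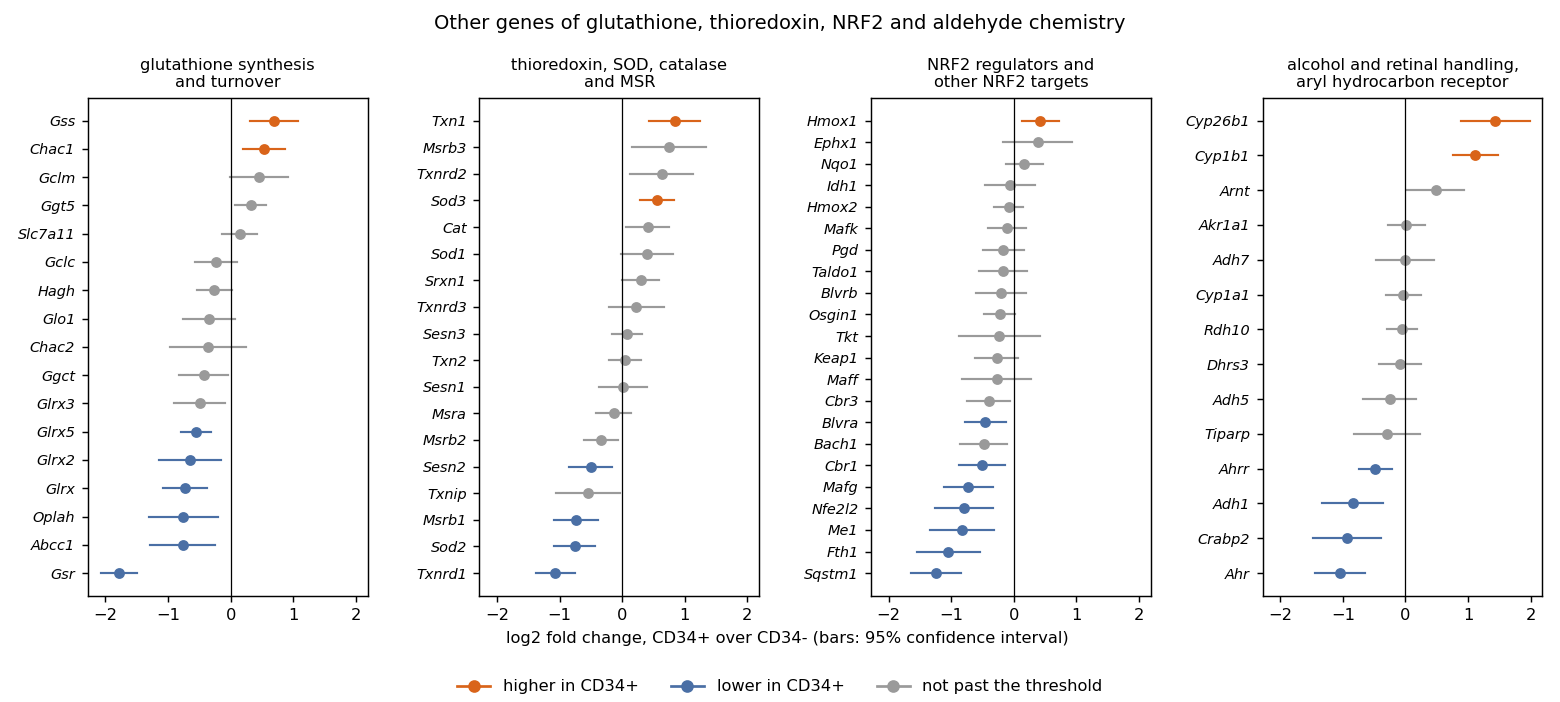
Log2 fold change, CD34+ over CD34- (horizontal axis), with 95% confidence interval, of the 71 genes of 4 lists around the detoxification enzymes. Gsr at -1.78, Sqstm1, Txnrd1, Fth1 and Ahr lie below -1, and Cyp26b1 and Cyp1b1 above 1.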

How the data were processed

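Total RNA of 12 arrays was analysed, 6 of CD34+ and 6 of CD34- keratinocytes. The values the authors deposited are on the log2 scale, 1 for each array and probe set. The submitters' processing notes name RMA, and its version is not given in the sources used here. RMA draws low values together and gives no call of detection. Of 45101 probe sets 64 controls were set aside, 34945 were tied to 1 gene by the platform annotation, 932 to several and 9160 were unnamed.

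The fractions were compared over 18193 genes by lmFit and eBayes of limma 3.58.1 (R 4.3.3), two-sided and without covariates, with p-values adjusted by Benjamini-Hochberg and a threshold of 0.05. Fold changes are CD34+ over CD34- on the log2 scale, errors of means are SD over 6 arrays, and those of fold changes are limma's standard errors. Adjusted p-values of further probe sets come from a fit over 45037 probe sets. The number of arrays limits the precision. The scripts were tested on simulated data with independent arrays. Of 50 genes given a log2 change of 0.5, 11 were called in the right direction, and 39 of 50 at 1.0 and 50 of 50 at 2.0. A gene that did not pass can therefore still differ by such smaller amounts.

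Members, gene lists and alternatives were chosen with earlier results of these data known. Every called member is named, as are the 2 with the highest mean in each family among those not called, up to 4 called genes of each of 4 lists with Nfe2l2 and Keap1, and the 2 markers of each of 9 cell types with the highest mean. The naming rule asked for the value in every array for all 13 called members. These are plotted, while the text gives them for Aldh3a1, Gpx2 and Gstt1, picked after their values were seen, and the lowest, median and highest for the other 10. The 4 lists held 78 genes, of which 71 were measured. A total of 21 alternatives was run.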

Additional observations from a re-analysis of the deposited data

How the results depend on the processing

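Aldh3a1 and Aldh3b2 kept their call under all 21 alternatives. Each has 1 probe set, so the mean of a gene's probe sets could not change its value. Of the 13 called genes 11 kept their call under all 12 alternatives that leave out 1 array, Mgst2 and Aldh3b1 being the exceptions. None of the 13 changed sign. With even-numbered arrays (3 against 3), 1351 genes were called, 2 of the 52 genes higher and 2 lower, and 4 of the 71 surrounding genes higher and 3 lower. Among the 52, 2 rose with arrays centred on their median and 2 when arrays 1-2, 3-4 and 5-6 were averaged. Among the 71, 14 rose after a further quantile normalization, and 11 rose and 8 fell without CD34+ arrays 1, 3 and 5. Median centring moved the median of all genes by -0.10, and then the lower share of calls was 83.3% among the 52 (10 of 12) and 80.8% over all genes, against 69.2% and 69.4% in the analysis reported, and 66.7% and 54.3% after a further quantile normalization. Leaving out 1 array gave 3677 to 5957 called genes, 3 to 5 of the 52 higher and 8 to 11 lower.

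Signs turned for differences that had not passed. After a further quantile normalization Gsto1 was at 0.25, Gstp1 at 0.26, Aldh16a1 at 0.13, Keap1 at 0.022, Plin2 at 0.15 and Cidec at -0.040. After median centring Gpx4 was at -0.052, Aldh6a1 at -0.090, Dsp at -0.076 and Cidec at -0.035. Without CD34+ arrays 1, 3 and 5 Gsto1 was at 0.26, Gstp1 at 0.18, Kdr at -0.081 and Cidec at -0.019. On even-numbered arrays Gsto1 was at 0.20, Gstp1 at 0.15, Plin2 at 0.061, Kdr at -0.018, Fabp4 at -0.0067 and Cidec at -0.11. With the mean of a gene's probe sets Gpx4 was at -0.38, Dsp at -0.32 (adjusted p = 0.0441) and Sbsn at -0.0075. Leaving out 1 array gave -0.12 to 0.070 for Gsto1, -0.053 to 0.081 for Gstp1, -0.011 to 0.14 for Gpx4, -0.10 to 0.12 for Aldh6a1 and -0.068 to 0.084 for Dsp. The causes were not tested.

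Array numbers run 1 to 6 in both fractions. Deviations of same-numbered arrays correlated at -0.24 to 0.49, and 3 of 6 arrays correlated best with their own number, so the numbers were not taken as pairs. With array number as a replicate block, 3 of the 52 genes were higher and 13 lower, and 6 and 22 of the 71, with 1471 higher and 3527 lower over all genes. Aldh3b1 (adjusted p = 0.0610) and Aldh5a1 (adjusted p = 0.0507) lost their call, and Prdx4, Aldh1a1, Aldh1a7, Gsta2 and Gpx1 gained one (adjusted p 0.00784 to 0.0468).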

Other observations

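Related enzymes read by probe sets outside the rule differed as well. A probe set shared by Gsta1, Gsta2 and Gm3776 averaged 5.56 ± 0.61 on CD34+ arrays and 6.98 ± 0.34 on CD34- arrays (SD, n = 6 each), without overlap, a difference of -1.42 (adjusted p = 0.00152) by limma over all 45037 probe sets, where Gsta2 read alone was at -0.60. Which of the 3 genes the shared probe set reads cannot be told apart. Gstk1, a transferase of mitochondria and peroxisomes, was at -0.69 (adjusted p = 0.0418), and Gstcd at -0.55 (adjusted p = 0.00520), both lower in CD34+ arrays. Gstz1, which acts in tyrosine breakdown, was at -0.017 (adjusted p = 0.926).

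Prdx1, the other cytosolic peroxiredoxin, is read by 5 probe sets that it shares with Gm21399. None of the 5 passed, with differences from -0.43 (adjusted p = 0.0953) to 0.030 (adjusted p = 0.906). The 2 probe sets shared by Aldh3b2 and Aldh3b3 were at 0.10 (adjusted p = 0.690) and 0.24 (adjusted p = 0.150), with means of 3.78 and 4.20 on CD34+ arrays and 3.67 and 3.96 on CD34- arrays, near the low end of the scale.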
